A study of Homo sapiens with 12 samples.

Results

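Genes of mitosis and the kinetochore, 54 in all, were followed in A549 and PC9 cells, which are human non-small cell lung cancer lines, with and without a HOXC6 vector. The genes were taken by name from the rows of the count table, and each of them was found among its 12584 complete genes. They encode 10 mitotic kinesins, 9 centromere and kinetochore proteins, 5 checkpoint and mitotic kinases or their partner, 3 chromosomal passenger proteins, 6 cyclins, CDC25 phosphatases and the activator CDC20, 3 proteins of sister chromatid cohesion and separation, 6 condensin subunits, 7 spindle proteins, 4 cytokinesis proteins and Ki-67. The members lie on 20 chromosomes, and every one of them is protein-coding.

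RNA-seq was performed on 4 groups of 3 libraries each. A549-HOXC6 and PC9-HOXC6 cells were stably infected with a lentiviral vector that carried HOXC6, a homeobox transcription factor, and A549-NEO and PC9-NEO cells carried the empty vector in the same way. All 4 groups had been grown with neomycin, so the controls share the vector and the selection with the HOXC6 cells. The labels number the libraries of a group as replicates, and the paper's methods call the replicates independent. Neither says whether they came from separate infections or cultures, so p-values measure only the spread between these libraries, which may be technical.

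In dividing cells, mitotic genes are transcribed in waves that peak in G2 and M phase. Condensin compacts the chromosomes, kinesins and spindle proteins build the spindle, and kinetochores assembled on CENP-A chromatin attach the chromosomes to it. The checkpoint kinases hold the cell until every kinetochore is attached, after which CDC20 activates the ubiquitin ligase that destroys cyclin B and securin and so frees separase. The level of these transcripts in a cell population therefore depends in part on how many of its cells are near division. In bulk RNA, fewer cells near division and less RNA per such cell cannot be told apart.

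The deposited values are read counts per gene. The totals over the table ran from 1212053 to 3286577 counts per library, and the floor of 3 counts equals 0.915 to 2.57 CPM (counts scaled to the library total over the genes of the table). Levels below are CPM scaled by the TMM method over 12 libraries, and changes are log2 fold changes of HOXC6 against NEO within a line. The threshold for a call was an adjusted p under 0.05 (edgeR's quasi-likelihood test, Benjamini-Hochberg over all genes tested) and a log2 fold change below -1 or above 1. Genes with Ensembl identifiers after the end of the table, including HOXC6, were not analysed here, and the labels were therefore not checked against the targeted gene. The lines were told apart by their markers, since ALDH1A1, an aldehyde dehydrogenase abundant in A549, had 4079 to 4694 CPM in A549 libraries and 8.11 to 42.3 CPM in PC9 libraries. The epithelial keratins KRT7 and KRT18 had at least 1143 CPM in every group, while 5 of the 6 fibroblast genes on the marker list (COL1A2, COL3A1, DCN, LUM and PDGFRB) had at most 4 counts in any library. The sixth, COL1A1, had 51.3 to 73.8 CPM in A549 libraries and 19.1 to 39.1 CPM in PC9 libraries. EPCAM, another epithelial marker, was low in A549 (4.37 to 6.94 CPM) and reached 148 to 205 CPM in PC9.

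One property of the libraries moved with the groups and bears on these genes. The mean transcript GC content, weighted by counts over all genes, was 52.02% to 52.25% in A549-NEO and 52.85% to 53.62% in A549-HOXC6, and 52.12% to 52.37% in PC9-NEO and 52.89% to 53.03% in PC9-HOXC6. The groups did not overlap in either line, and A549-HOXC6 replicate 3 stood apart from the other A549-HOXC6 libraries (53.62% against 52.85% and 52.88%). Values corrected for GC content and transcript length are given beside the main ones or together after the groups of genes. The correction removes any trend that all genes share, whatever its source.

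The members differ widely in base composition. The GC content of their canonical transcripts ran from 34.3% in KIF20B to 59.1% in CDC25B, with a median of 42.6%, against a median of 48.7% over the genes tested in PC9. To show what these values look like, 120 bases from the middle of the longest coding exon are given for 3 members of low GC content that were called lower in PC9 and for 3 of high GC content that were not called, all from GRCh37, 5′ to 3′ in the sense of the transcript, with G and C in capitals. These 6 genes were picked after their values were seen.
CENPE (minus strand, chr4:104080264-104080383, exon 22 of 49, transcript 35.1% GC): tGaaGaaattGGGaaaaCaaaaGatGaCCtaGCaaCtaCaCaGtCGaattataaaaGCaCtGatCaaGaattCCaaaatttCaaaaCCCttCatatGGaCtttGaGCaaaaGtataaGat
KIF20B (plus strand, chr10:91497699-91497818, exon 20 of 33, transcript 34.3% GC): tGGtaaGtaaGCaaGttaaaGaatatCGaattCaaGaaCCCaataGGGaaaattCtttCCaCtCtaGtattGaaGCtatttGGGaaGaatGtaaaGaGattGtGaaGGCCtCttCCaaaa
SMC4 (plus strand, chr3:160135568-160135687, exon 11 of 24, transcript 36.6% GC): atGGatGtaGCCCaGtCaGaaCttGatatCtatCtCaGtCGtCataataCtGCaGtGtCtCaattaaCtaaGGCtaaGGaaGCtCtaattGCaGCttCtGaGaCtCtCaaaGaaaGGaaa
CDC20 (plus strand, chr1:43826458-43826577, exon 8 of 11, transcript 56.9% GC): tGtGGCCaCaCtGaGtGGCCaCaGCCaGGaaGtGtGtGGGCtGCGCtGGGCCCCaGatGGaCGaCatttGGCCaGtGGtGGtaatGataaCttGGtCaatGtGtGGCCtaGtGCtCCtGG
ESPL1 (plus strand, chr12:53663279-53663398, exon 3 of 31, transcript 57.0% GC): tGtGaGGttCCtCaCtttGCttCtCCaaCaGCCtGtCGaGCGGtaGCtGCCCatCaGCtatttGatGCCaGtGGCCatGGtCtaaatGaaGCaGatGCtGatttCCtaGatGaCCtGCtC
PLK1 (plus strand, chr16:23690398-23690517, exon 1 of 10, transcript 57.1% GC): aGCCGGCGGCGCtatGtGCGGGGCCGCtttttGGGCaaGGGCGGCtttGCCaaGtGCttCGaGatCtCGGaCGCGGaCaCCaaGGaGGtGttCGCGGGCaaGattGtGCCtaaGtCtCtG
The stretches of CENPE, KIF20B and SMC4 hold 32.5%, 35% and 40% G and C, and those of CDC20, ESPL1 and PLK1 hold 58.3%, 50.8% and 62.5%.

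In PC9 cells, 17 of the 54 members were lower in PC9-HOXC6 than in PC9-NEO and none was called higher. The 17 were the kinesins CENPE, KIF20B, KIF15, KIF18A, KIF14 and KIF11, the kinetochore proteins CENPF and NUF2, the checkpoint kinase TTK, the condensin ATPases SMC4 and SMC2, the spindle proteins ASPM, HMMR, CKAP2 and DLGAP5, the cytokinesis factor ECT2 and MKI67. Their log2 fold changes ran from -3.30 to -1.11. Over all 8419 genes tested in PC9, 3.56% were called lower and 0.962% higher. Without the criterion of size, 24 members passed the test as lower, against 14.2% of all genes, and 1 as higher, against 13.3%. At an unadjusted p under 0.05 1 member was also higher, and DESeq2 called none higher. The member that passed as higher was CDC25B, a phosphatase that activates CDK1 at mitotic entry, at 0.29. The median log2 fold change of the members was -0.34, and that of all genes was 0. In 31 members every PC9-HOXC6 library lay below every PC9-NEO library, as in 20.4% of all genes, and in 2 members every one lay above, as in 19.5%. Once GC content and length were corrected for, 12 members were called lower, each of which was among the 17, against 1.43% of all genes. None was called higher, against 0.748%. At any size 23 members were then lower and none higher, against 9.42% and 10.7% of all genes.

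Members changed in both directions in A549 cells, and so did genes over the whole table. The members called lower in A549-HOXC6 numbered 7, namely the kinase TTK (-2.02), the kinesins CENPE (-1.54), KIF20B (-1.17) and KIF14 (-1.04), the kinetochore protein NUF2 (-1.35), the spindle protein HMMR (-1.05) and the condensin subunit NCAPG (-1.02), while the kinetochore protein ZWINT was called higher (1.43). Of 8771 genes tested in A549, 5.51% were called lower and 1.70% higher. At any size 18 members were lower, against 20.7% of all genes, and 12 were higher, against 18.9%. The 12 were ZWINT, ESPL1, RACGAP1, BIRC5, CDC20, KIF20A, PLK1, CCNB1, TACC3, SPC24, NCAPD2 and CDC25B. The median over 53 members was -0.07, and the median over all genes was 0. All A549-HOXC6 libraries lay below all A549-NEO libraries in 16 members and above them in 20, against 23.6% and 26.8% of all genes. After the correction 1 member, TTK, was called lower, against 1.94% of all genes, and 2, ZWINT and SPC25, were called higher, against 1.57%. At any size 5 were then lower, against 14.7%, and 14 higher, against 16.3%. The count of 7 was also 1 of 47 members tested when the libraries were thinned to equal depth. It was 2 of 45 tested among genes with at least 10 counts in every library. That filter takes out CENPE, NUF2, KIF20B, KIF14 and TTK, whose lowest A549-HOXC6 counts were 0, 1, 3, 3 and 4. Their calls could therefore not recur there. It was 3 without A549-NEO replicate 2, and 4 without A549-NEO replicate 3 or A549-HOXC6 replicate 3.

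NDC80, the subunit that names the main microtubule-binding complex of the kinetochore, was too low in A549 to enter the test. Its counts were 16, 5 and 8 with NEO and 4, 1 and 4 with HOXC6. Fitted without the filter, its log2 fold change was -1.25 (SE 0.69, adjusted p = 0.173 by edgeR). In PC9 it had 16.2, 17.6 and 16.1 CPM with NEO and 8.2, 7.37 and 10.1 CPM with HOXC6, a change of -0.91 that passed the test below the fold required for a call (adjusted p = 0.013 by edgeR).

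**Figure D1:**
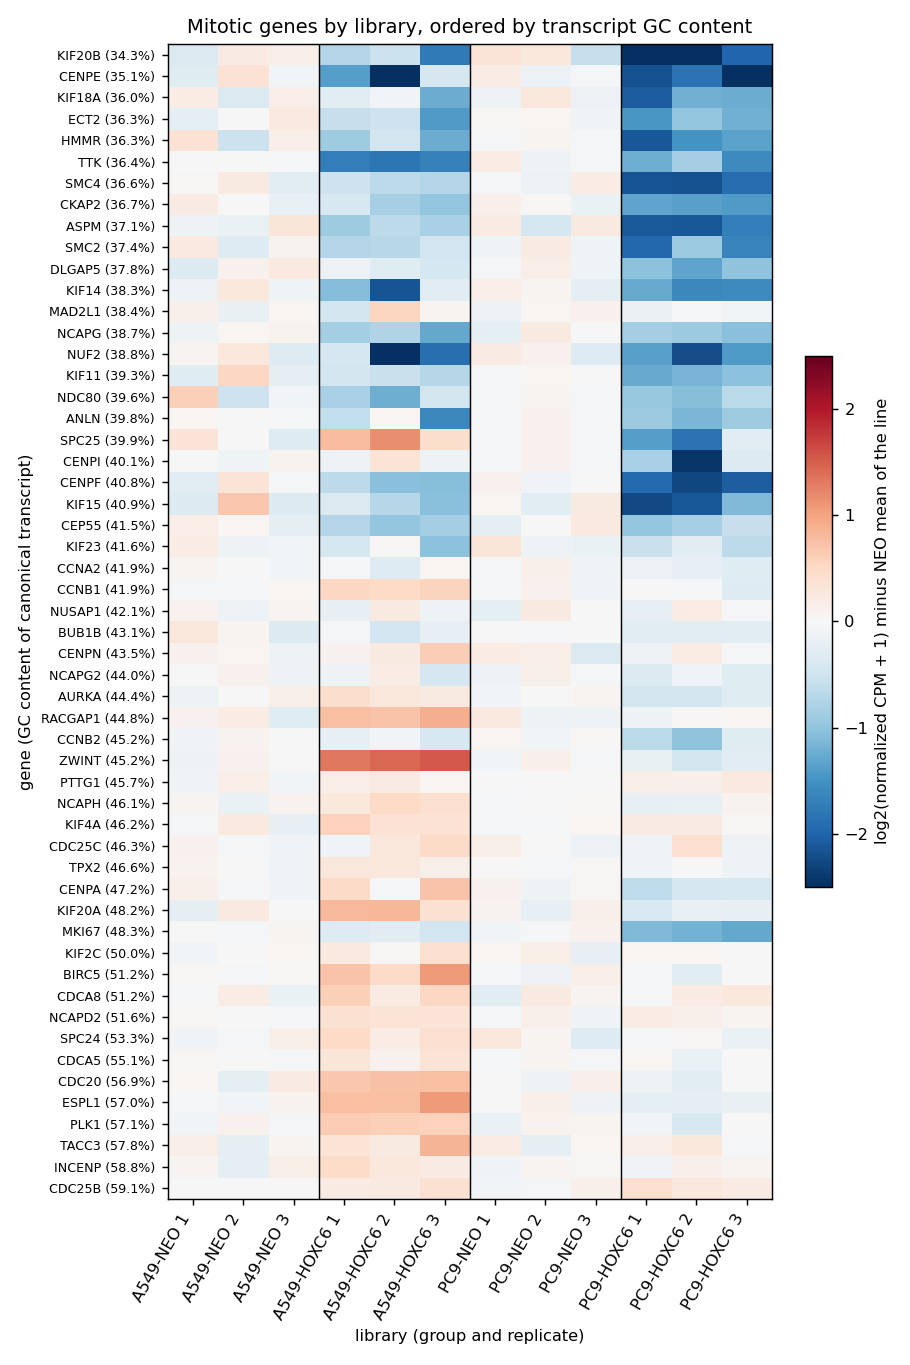
Each row is 1 of the 54 members, ordered from low (top) to high GC content of its canonical transcript (bottom), and each column is 1 library, with colour for log2(normalized CPM + 1) minus the NEO mean of the same line. The 3 PC9-HOXC6 columns are blue over most of the upper rows, and the A549-HOXC6 columns turn from blue at the top to red in most of the lower rows.

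Among the 10 kinesins, the motors that move chromosomes and slide microtubules, 6 were called lower in PC9 and 3 in A549, and none was called higher in either line. CENPE, which carries chromosomes along the spindle to the metaphase plate, was the member with the largest change in PC9 and followed TTK in A549. It had 9.19, 7.05 and 7.63 CPM in PC9-NEO and 0.965, 1.47 and 0.305 CPM in PC9-HOXC6, with no overlap. The HOXC6 values rest on 2, 2 and 1 counts, so the summed counts (49 against 5) give a ratio of 10.6 with a 95% exact Poisson interval of 4.25 to 34.1 that covers counting error only. The fitted change was -3.30 (adjusted p = 5.13e-05 by edgeR), and after the correction it was -2.63 (adjusted p = 0.00172 by edgeR). Both depend on the prior count at such levels. In A549 it had 4.16, 7.23 and 5.11 CPM with NEO and 1.46, 0 and 3.75 CPM with HOXC6, from 4, 0 and 7 counts. This call (adjusted p = 0.0303 by edgeR) was lost with DESeq2 (adjusted p = 0.0772), after the correction (-0.75, adjusted p = 0.35 by edgeR) and without any 1 of 4 libraries (A549-HOXC6 replicates 1 and 2 and A549-NEO replicates 2 and 3, adjusted p 0.0599 to 0.139 by edgeR).

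KIF2C, a kinesin that takes microtubules apart at centromeres, stood at the other end of its group. Its level was 92.4, 100 and 76.8 CPM in PC9-NEO and 91.7, 92.2 and 89.1 CPM in PC9-HOXC6, and the groups overlapped (0.02 ± 0.113 SE, adjusted p = 0.905 by edgeR). A549 gave 53.1, 56.2 and 57.4 CPM with NEO and 66.2, 56.5 and 73.8 CPM with HOXC6, with one HOXC6 library inside the NEO range (adjusted p = 0.228 by edgeR). The transcripts of CENPE and KIF2C have GC contents of 35.1% and 50%.

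The 9 centromere and kinetochore members included 2 called lower in PC9, and in A549 1 called lower and 1 called higher. CENPF, a large protein of the outer kinetochore that accumulates in G2, had 108, 94.6 and 99.7 CPM in PC9-NEO and 25.6, 19.9 and 23.2 CPM in PC9-HOXC6. Every HOXC6 library lay far below the NEO libraries (-2.11 ± 0.141 SE, adjusted p = 3.57e-12 by edgeR), and the change was -1.72 after the correction (adjusted p = 8.6e-10 by edgeR). In A549 CENPF had 35.4, 54.6 and 42 CPM with NEO and 27.3, 20.5 and 20.3 CPM with HOXC6. The groups did not overlap and the change of -0.95 passed the test (adjusted p = 0.000348 by edgeR) below the fold for a call. It became a call without A549-HOXC6 replicate 1 (-1.15) or A549-NEO replicate 1 (-1.10), and after the correction it was -0.42 (adjusted p = 0.0745 by edgeR).

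NUF2, the partner of NDC80 in its complex, was called lower in both lines. PC9-NEO had 16.2, 15.1 and 11 CPM, and PC9-HOXC6 had 4.82, 2.21 and 4.57 CPM (-1.74, adjusted p = 0.000335 by edgeR). A549-NEO had 13.2, 15.3 and 9.82 CPM, and A549-HOXC6 had 9.1, 0.856 and 2.68 CPM (-1.35, adjusted p = 0.00942 by edgeR). The groups were separate in both lines, but one A549-HOXC6 library was close to the NEO range and another held 1 count. The correction left a change of -1.36 in PC9 (adjusted p = 0.00585 by edgeR) and of -0.93 in A549 (adjusted p = 0.0623 by edgeR).

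SPC25 and ZWINT had higher levels with HOXC6 in A549 and lower levels with HOXC6 in PC9. SPC25, another subunit of the NDC80 complex, had 4.86, 3.62 and 2.75 CPM in A549-NEO and 6.91, 9.42 and 5.35 CPM in A549-HOXC6, and 7.57, 8.56 and 7.63 CPM in PC9-NEO against 2.41, 1.47 and 6.4 CPM in PC9-HOXC6. The groups were separate in each line, yet neither change passed the test (0.83, adjusted p = 0.114, and -0.96, adjusted p = 0.0904, by edgeR), at 2 to 21 counts per library. Without PC9-HOXC6 replicate 3 the PC9 change was a call (-1.92, adjusted p = 0.0164 by edgeR), and after the correction the A549 change was (1.17, adjusted p = 0.0287 by edgeR).

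ZWINT, which joins the outer kinetochore to the checkpoint machinery, had 12.8, 15.3 and 14.1 CPM in A549-NEO and 36.4, 39.4 and 42.3 CPM in A549-HOXC6. The HOXC6 libraries all lay well above the NEO libraries (1.43 ± 0.198 SE, adjusted p = 2.24e-06 by edgeR), and the corrected change was 1.44. In PC9 it had 79.4, 92.1 and 80.6 CPM with NEO and 73.8, 60.5 and 69.8 CPM with HOXC6 (-0.29, adjusted p = 0.0719 by edgeR). The PC9 groups were separate by a small margin. CENPA, the histone variant that marks the centromere, had 27.8, 24.9 and 23.6 CPM in A549-NEO and 35.7, 24.8 and 42.3 CPM in A549-HOXC6, and 21.6, 18.1 and 20.4 CPM in PC9-NEO against 12.5, 14.7 and 14.9 CPM in PC9-HOXC6. Neither change passed the test (0.42, adjusted p = 0.0833, and -0.50, adjusted p = 0.115, by edgeR), although the PC9 groups did not overlap.

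In the group of checkpoint and mitotic kinases, which also holds the checkpoint protein MAD2L1, TTK was called lower in both lines and the other 4 in neither. TTK, also known as MPS1, starts checkpoint signalling at unattached kinetochores. A549-NEO had 14.6, 14.5 and 14.1 CPM and A549-HOXC6 3.64, 3.42 and 3.75 CPM, with a wide gap between the groups (-2.02 ± 0.344 SE, adjusted p = 3.68e-05 by edgeR). PC9-NEO had 22.2, 17.6 and 18.7 CPM and PC9-HOXC6 7.72, 10.3 and 5.79 CPM (-1.37 ± 0.285 SE, adjusted p = 0.000497 by edgeR). After the correction the A549 change was -1.45 (adjusted p = 0.00156 by edgeR) and remained a call. The PC9 change was -0.86 after the correction (adjusted p = 0.0316 by edgeR) and -0.97 in thinned libraries, so there it passed the test without reaching the fold.

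PLK1 and AURKA, the kinases of centrosome maturation and spindle poles, were not called in either line. PLK1 had 109, 123 and 111 CPM in A549-NEO and 179, 174 and 170 CPM in A549-HOXC6, and 108, 129 and 126 CPM in PC9-NEO against 115, 91.4 and 121 CPM in PC9-HOXC6. The A549 libraries were separate and the change passed the test below the fold (0.57 ± 0.102 SE, adjusted p = 7.57e-05 by edgeR), while the PC9 libraries overlapped (-0.12, adjusted p = 0.441 by edgeR). The corrected changes of PLK1 were 0.31 in A549 (adjusted p = 0.00889 by edgeR) and -0.28 in PC9 (adjusted p = 0.0622 by edgeR). AURKA had 54.5, 59.5 and 66.4 CPM in A549-NEO and 81.5, 73.6 and 70.1 CPM in A549-HOXC6 (0.29, adjusted p = 0.0859 by edgeR). In PC9 it had 72.4, 77 and 79.7 CPM with NEO and 55, 55.3 and 61.9 CPM with HOXC6, separate groups with a change of -0.40 (adjusted p = 0.0141 by edgeR).

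None of the 3 chromosomal passenger proteins was called. BIRC5, or survivin, had 77.7, 73.9 and 77.4 CPM in A549-NEO and 126, 106 and 161 CPM in A549-HOXC6, with no overlap (0.75 ± 0.124 SE, adjusted p = 2.63e-05 by edgeR). Its PC9 levels of 84.3, 78.5 and 97.6 CPM with NEO and 83.9, 72.3 and 86.6 CPM with HOXC6 overlapped (-0.09, adjusted p = 0.631 by edgeR). INCENP, the scaffold of the complex, had 69.4, 56.2 and 72.7 CPM in A549-NEO and 90.2, 79.6 and 75.5 CPM in A549-HOXC6 (0.27, adjusted p = 0.105 by edgeR), and 91.9, 105 and 102 CPM in PC9-NEO against 92.6, 109 and 105 CPM in PC9-HOXC6 (0.03, adjusted p = 0.853 by edgeR). Only the PC9 groups of INCENP overlapped.

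The regulators of mitotic entry and exit were likewise without a call in either line. CCNB1, the main cyclin partner of CDK1, had 84, 83.6 and 88 CPM in A549-NEO and 123, 121 and 126 CPM in A549-HOXC6 (0.49 ± 0.109 SE, adjusted p = 0.000762 by edgeR). In PC9 its levels were 179, 198 and 173 CPM with NEO and 182, 176 and 146 CPM with HOXC6, which overlapped (-0.14, adjusted p = 0.265 by edgeR). The A549 groups were tight and separate. CDC20 had 87.1, 71.1 and 97 CPM in A549-NEO and 135, 140 and 142 CPM in A549-HOXC6 (0.66 ± 0.117 SE, adjusted p = 6.62e-05 by edgeR), and 210, 194 and 229 CPM in PC9-NEO against 192, 175 and 212 CPM in PC9-HOXC6 (-0.12, adjusted p = 0.34 by edgeR). It too was higher in every A549-HOXC6 library and overlapped in PC9. After the correction the A549 change was 0.38 (adjusted p = 0.00385 by edgeR), and the PC9 change of -0.27 passed the test below the fold (adjusted p = 0.0229 by edgeR).

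CCNB2, the second mitotic B-type cyclin, had 48.1, 44.8 and 47.5 CPM in PC9-NEO and 28.9, 22.9 and 37.8 CPM in PC9-HOXC6. The groups were separate and the change of -0.58 passed the test below the fold (adjusted p = 0.00969 by edgeR). In A549 it had 95.4, 107 and 101 CPM with NEO and 87, 95.9 and 76 CPM with HOXC6, where the groups overlapped (-0.28, adjusted p = 0.0607 by edgeR). CDC25C, a phosphatase that activates CDK1, overlapped in both lines. Its A549 levels were 23.6, 21.3 and 20.4 CPM with NEO and 20, 26.5 and 30.5 CPM with HOXC6, and its PC9 levels 53.5, 48.8 and 43.7 CPM with NEO and 45.8, 65.6 and 43.9 CPM with HOXC6 (adjusted p = 0.579 and 0.858 by edgeR).

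Of the cohesion and separation group, ESPL1, the separase that cuts cohesin, was higher in A549-HOXC6 at any size and none was called. ESPL1 had 40.6, 39.8 and 44.4 CPM in A549-NEO and 71, 71 and 87.8 CPM in A549-HOXC6 (0.84 ± 0.141 SE, adjusted p = 3.07e-05 by edgeR). PC9 gave 73, 79.5 and 66.2 CPM with NEO and 61.7, 61.2 and 63.7 CPM with HOXC6 (-0.22, adjusted p = 0.194 by edgeR). Its groups were separate in each line, upward in A549 and downward in PC9. CDCA5, or sororin, which protects cohesion until anaphase, had 90.9, 88.8 and 86.4 CPM in A549-NEO, 110, 95 and 112 CPM in A549-HOXC6, 93, 99.2 and 92.9 CPM in PC9-NEO and 98.4, 84.1 and 95.2 CPM in PC9-HOXC6 (adjusted p = 0.121 and 0.901 by edgeR). Its groups were separate in A549 and overlapped in PC9.

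**Figure D2:**
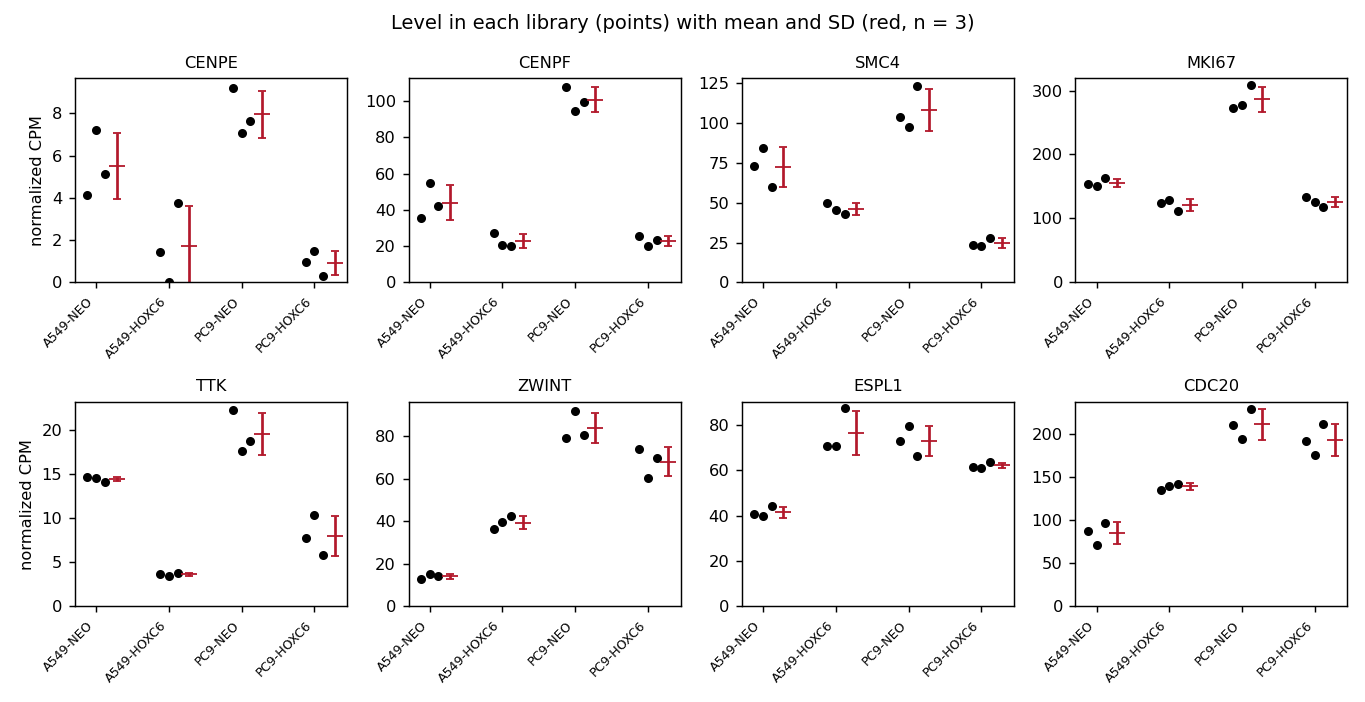
Normalized CPM in each library (black points) of 8 members, with the group mean and SD of 3 libraries in red, on axes that start at 0. CENPE, CENPF, SMC4, MKI67 and TTK have lower means with HOXC6 in both lines, while the A549-HOXC6 points of ZWINT, ESPL1 and CDC20 all lie above the A549-NEO points.

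The 6 condensin genes encode the ATPases SMC2 and SMC4, which both condensin complexes share, and subunits of condensin I (NCAPD2, NCAPG and NCAPH) or condensin II (NCAPG2). The ATPases SMC4 and SMC2 were called lower in PC9, NCAPG was called lower in A549, and NCAPD2, NCAPG2 and NCAPH were called in neither line. SMC4 had 104, 97.7 and 123 CPM in PC9-NEO and 23.2, 22.9 and 28.1 CPM in PC9-HOXC6, far apart (-2.10 ± 0.142 SE, adjusted p = 4.35e-12 by edgeR, and -1.56 after the correction). In A549 it had 73.2, 84.4 and 59.7 CPM with NEO and 49.9, 45.4 and 42.8 CPM with HOXC6 (-0.69 ± 0.149 SE, adjusted p = 0.000607 by edgeR). Those groups were separate too, but the corrected A549 change was -0.04 (adjusted p = 0.875 by edgeR). NCAPH, the kleisin that closes the condensin I ring, had 66.5, 69.5 and 70.4 CPM in PC9-NEO and 59.8, 60.5 and 72.9 CPM in PC9-HOXC6 (-0.07, adjusted p = 0.716 by edgeR), and 35, 29.3 and 35.4 CPM in A549-NEO against 39.7, 47.1 and 43.9 CPM in A549-HOXC6 (0.32, adjusted p = 0.123 by edgeR). NCAPG missed the PC9 threshold narrowly, at -1.0 (adjusted p = 0.000154 by edgeR), and its corrected changes of -0.59 in PC9 and -0.50 in A549 passed the test below the fold (adjusted p = 0.0211 and 0.00662 by edgeR). Exons of SMC4 and NCAPG overlap those of genes on the opposite strand by 1796 and 1634 bp, and the strand setting of the counting is not given in the sources used here.

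Of the 7 spindle proteins, 4 were called lower in PC9 and 1 in A549. ASPM, which holds microtubule minus ends at the spindle poles, had 44.3, 28.2 and 45 CPM in PC9-NEO and 8.2, 8.11 and 11 CPM in PC9-HOXC6, with no overlap (-2.05 ± 0.235 SE, adjusted p = 9.45e-08 by edgeR, and -1.44 after the correction). In A549 it had 20.1, 19.7 and 27.5 CPM with NEO and 11.6, 13.7 and 12.3 CPM with HOXC6, again separate (-0.90, adjusted p = 0.0043 by edgeR), and -0.16 after the correction (adjusted p = 0.671 by edgeR). TPX2, which activates Aurora A and nucleates spindle microtubules, gave 181, 179 and 186 CPM in PC9-NEO and 170, 182 and 167 CPM in PC9-HOXC6, and 186, 177 and 165 CPM in A549-NEO against 213, 213 and 195 CPM in A549-HOXC6. Its changes of -0.08 and 0.19 did not pass the test (adjusted p = 0.512 and 0.13 by edgeR), and the PC9 groups overlapped.

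Of the 4 cytokinesis members, ECT2 was called lower in PC9 and RACGAP1 was higher at any size in A549. ECT2, the exchange factor that activates RhoA at the cleavage plane, had 69.2, 70 and 64 CPM in PC9-NEO and 24.1, 33.9 and 29 CPM in PC9-HOXC6 (-1.24 ± 0.15 SE, adjusted p = 2.28e-07 by edgeR). In A549 it had 78.4, 92.4 and 111 CPM with NEO and 61.9, 65.1 and 34.2 CPM with HOXC6 (-0.85 ± 0.17 SE, adjusted p = 0.000237 by edgeR), and -1.04 without A549-HOXC6 replicate 1, which made it a call. The groups were separate in both lines, and the corrected changes were -0.71 in PC9 (adjusted p = 0.000875 by edgeR) and -0.24 in A549 (adjusted p = 0.217 by edgeR). RACGAP1, which anchors ECT2 to the central spindle, had 45.8, 48.6 and 34.2 CPM in A549-NEO and 72.4, 70.2 and 80.3 CPM in A549-HOXC6 (0.75 ± 0.147 SE, adjusted p = 0.0002 by edgeR). In PC9 its levels of 85.9, 65.9 and 65.7 CPM with NEO and 66.1, 73.7 and 74.1 CPM with HOXC6 overlapped (-0.01, adjusted p = 0.952 by edgeR).

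MKI67 encodes Ki-67, which coats mitotic chromosomes and is the usual marker of proliferating cells. It had 273, 277 and 309 CPM in PC9-NEO and 133, 125 and 118 CPM in PC9-HOXC6, with a wide gap between the groups (-1.20 ± 0.0849 SE, adjusted p = 1.1e-11 by edgeR). In A549 it had 154, 151 and 163 CPM with NEO and 124, 129 and 111 CPM with HOXC6, separate groups with a change of -0.41 (adjusted p = 0.00262 by edgeR). Its transcript has 48.3% GC, and the correction changed it little, to -1.12 in PC9 (adjusted p = 5.77e-11 by edgeR) and -0.30 in A549 (adjusted p = 0.00941 by edgeR).

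For the members given above with values in every library, none of the corrected values not yet given was a call. Of the members only named above, KIF20B (-2.03), KIF15 (-1.56), KIF18A (-1.13), KIF14 (-1.09), HMMR (-1.13) and SMC2 (-1.13) were still called lower in PC9 after the correction. In A549 it left BIRC5 (0.55), CCNB1 (0.72), ESPL1 (0.74) and RACGAP1 (0.83) higher at any size, and AURKA (0.35, adjusted p = 0.0245 by edgeR) and NCAPH (0.43, adjusted p = 0.0391 by edgeR) then passed the test as higher and CCNB2 (-0.28, adjusted p = 0.0416 by edgeR) as lower. The corrected A549 values of KIF2C (0.05), CENPA (0.32), INCENP (0.10), CDC25C (0.11), CDCA5 (-0.02) and TPX2 (0.18) did not pass. In PC9 CCNB2 stayed lower at any size (-0.52, adjusted p = 0.0245 by edgeR), and AURKA no longer passed (-0.31, adjusted p = 0.0653 by edgeR). The corrected PC9 values of ZWINT (-0.24), SPC25 (-0.63), KIF2C (-0.09), CENPA (-0.53), BIRC5 (-0.21), INCENP (-0.15), CCNB1 (0.08), CDC25C (0.04), ESPL1 (-0.33), CDCA5 (-0.17), NCAPH (-0.03), TPX2 (-0.10) and RACGAP1 (0.04) did not pass.

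The members that were called lower were mostly those with transcripts of low GC content. Of the members under 40% GC, 14 of 19 were called lower in PC9 (73.7%), against 14.9% of all genes in that range, and 7 of 18 in A549 (38.9%), against 19.6%. From 40% to 50% GC the counts were 3 of 23 in PC9, against 2.84% of all genes, and 0 of 23 in A549, against 4.88%. At 50% GC or more no member was called lower, of 12 in each line, against 0.205% of all genes in PC9 and 1.06% in A549. MAD2L1, at 38.4% GC, was among the members of low GC content without a call (-0.10 in PC9 and -0.04 in A549).

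The median change of the members rose with GC content in the same way. In PC9 it was -1.42 under 40%, -0.27 from 40% to 50% and 0 above, where all genes had -0.42, -0.08 and 0.14. In A549 the medians of the members were -0.81, 0.09 and 0.40, and those of all genes -0.59, -0.13 and 0.20. In the lowest range the medians of members and of all genes lay further apart in PC9 than in A549, and this difference was not tested. Median transcript lengths there were 4587 bases for members and 4472.5 for all genes in PC9. After the correction the members' medians were -0.92, -0.16 and -0.16 in PC9 and -0.21, 0.14 and 0.21 in A549.

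Across members, Spearman's rho between the log2 fold change and GC content was 0.809 in PC9 (n = 54) and 0.766 in A549 (n = 53), against 0.527 and 0.53 over all genes tested. With transcript length it was -0.383 and -0.444 for the members and -0.174 and -0.275 for all genes. After the correction rho with GC content was 0.645 and 0.524 for the members and -0.0296 and 0.0246 for all genes. These are descriptions over genes that share the same libraries, and genes are not independent replicates.

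**Figure D3:**
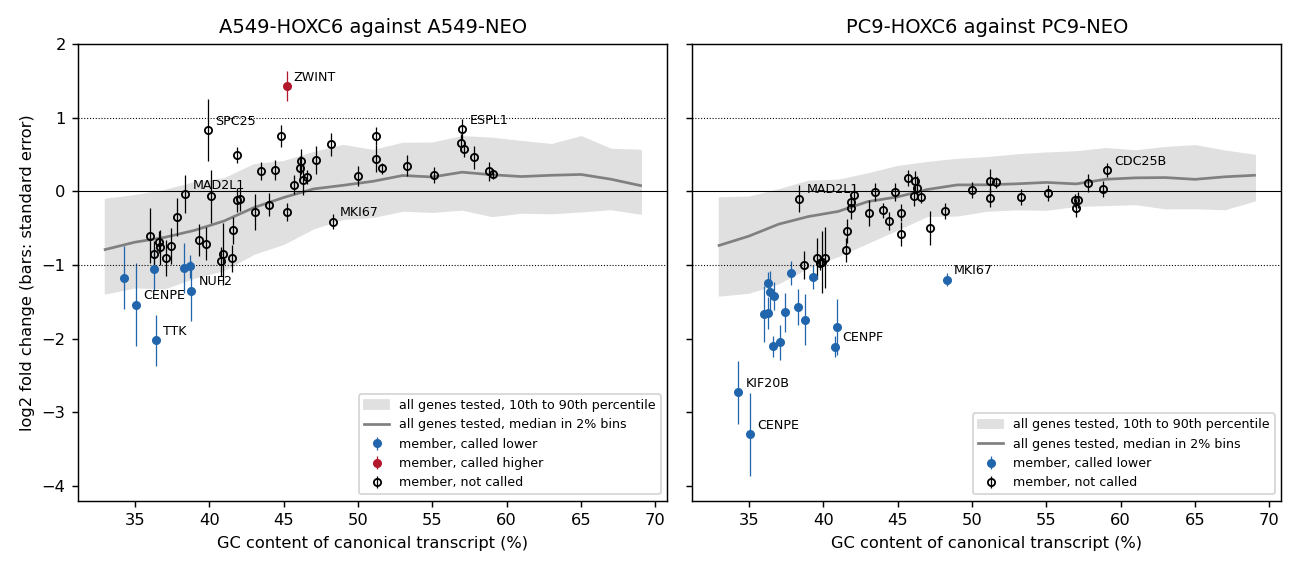
Log2 fold change of each tested member (points, with its standard error) against the GC content of its canonical transcript in percent, with the median of all genes tested in bins of 2% (grey line) and their 10th to 90th percentile (grey band). In PC9 most members under 40% GC lie below the band, and MKI67 at 48.3% lies far below its neighbours, while in A549 most members follow the band.

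**Figure D4:**
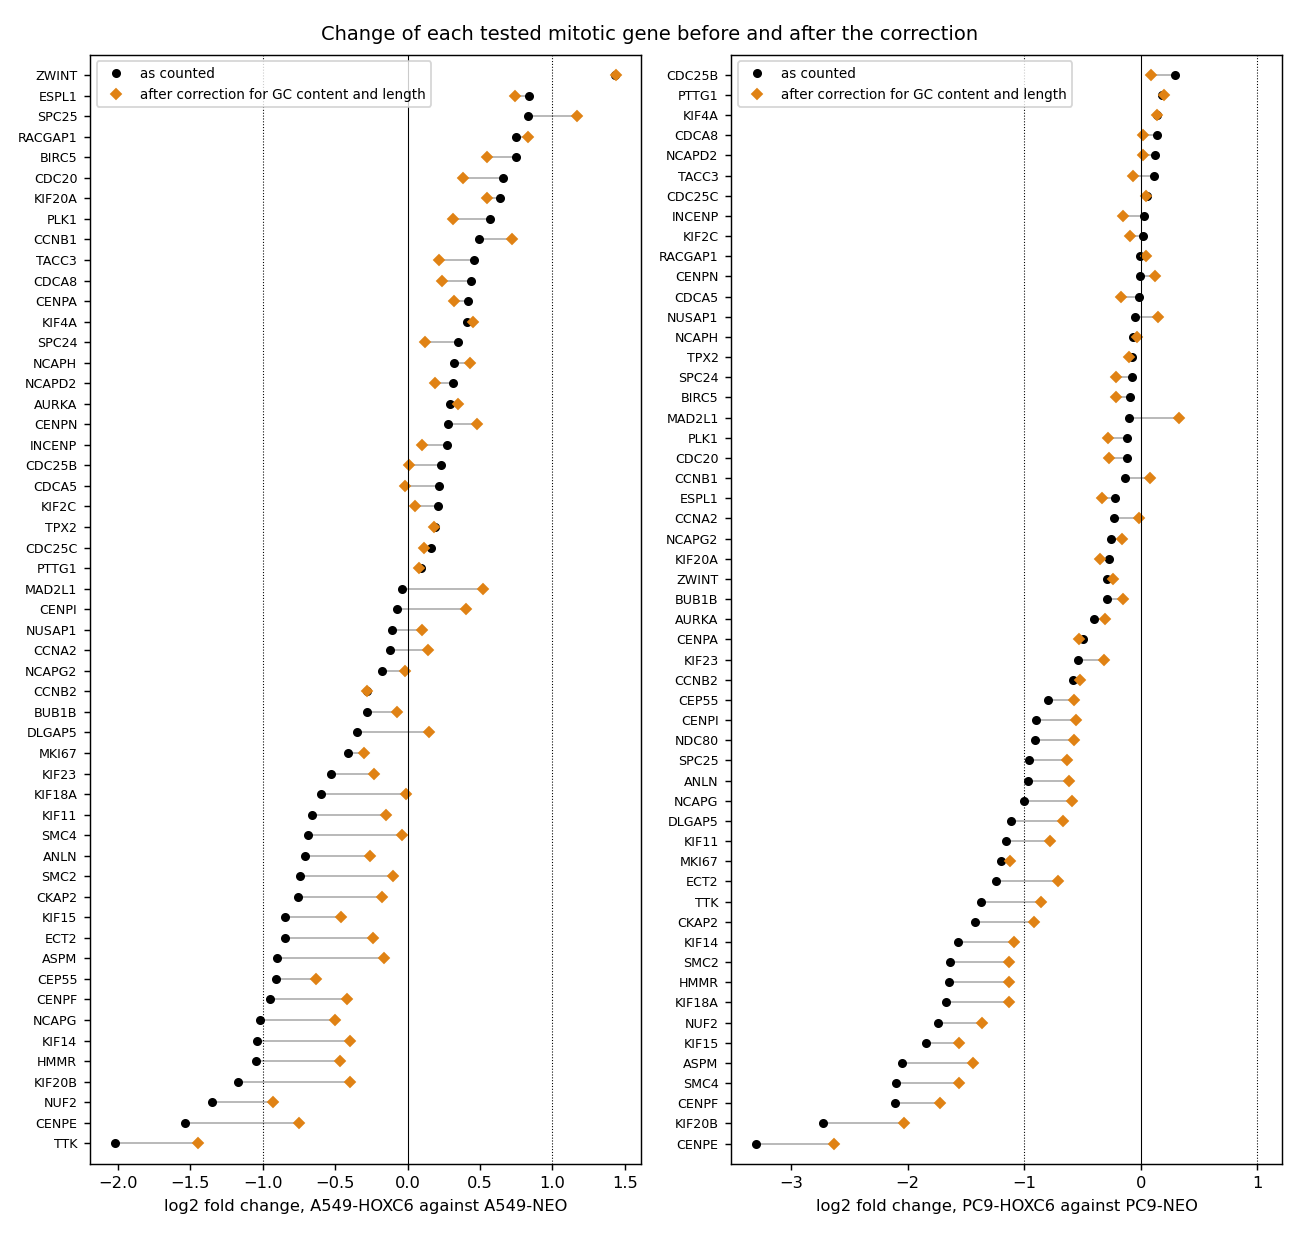
Log2 fold change of each tested member as counted (black) and after correcting for GC content and length (orange), sorted by the first, with dotted lines at -1 and 1. In A549 most changes of the lower members shrink to above -1, with TTK staying below it, and in PC9 12 members stay below -1.

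The libraries of the lines are separate, so their responses can be set side by side. Over the 53 members tested in both lines, Spearman's rho between the log2 fold changes was 0.73, against 0.344 over 7954 genes, and it was 0.63 for the members after the correction. Both lines called 6 members lower (TTK, CENPE, NUF2, KIF20B, HMMR and KIF14), and after the correction none was. Over all 7954 genes tested in both lines, 115 were called lower in both. NCAPG was called in A549 and not in PC9, and 11 were called in PC9 and not in A549. Calls in 1 line only were not counted over all genes, so these numbers have no share beside them. Of all genes tested in each line, 483 were called lower in A549 and 300 in PC9. At any size, the 18 members lower in A549 were all lower in PC9 as well and made up 78.3% of the 23 lower in PC9. Over all genes, 39.4% of those lower in A549 were lower in PC9, and 58% of those lower in PC9 were lower in A549.

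The difference between the responses was tested as an interaction over 12 libraries. It called 6 members, against 5.15% of all genes, and in each the A549 response was the higher one. They were SPC25 (1.84 ± 0.61 SE, adjusted p = 0.028), ZWINT (1.76 ± 0.222, adjusted p = 1.23e-07), SMC4 (1.46 ± 0.214, adjusted p = 2.57e-06), CENPF (1.22 ± 0.25, adjusted p = 0.000394), ASPM (1.19 ± 0.354, adjusted p = 0.0138) and ESPL1 (1.10 ± 0.187, adjusted p = 3.09e-05), all by edgeR. At any size 16 members passed, against 19.4% of all genes, all of them in the same direction. Of the 54 members 48 had a positive difference (88.9%), with a median of 0.46, against 53.9% of all genes and a median of 0.05. In libraries thinned to equal depth 3 members were called.

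**Figure D5:**
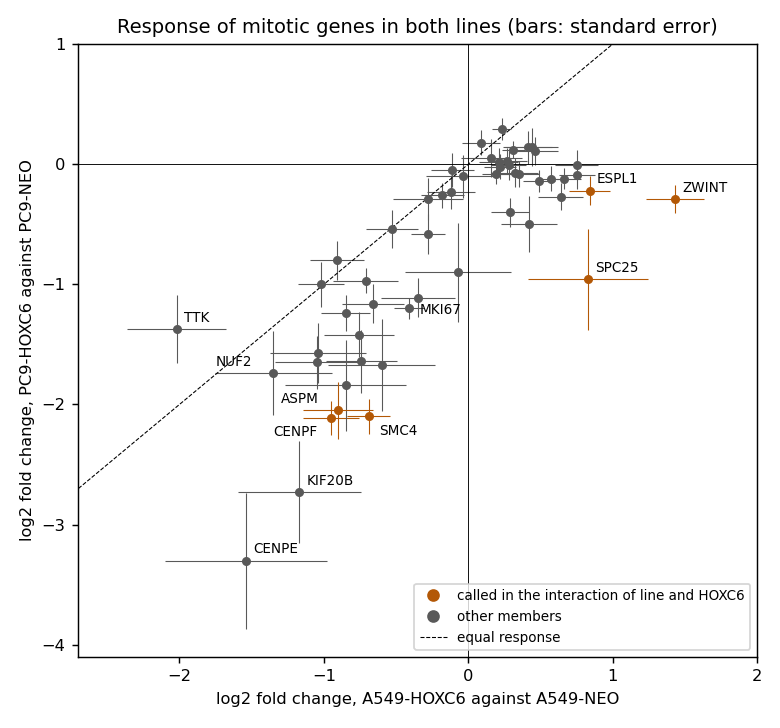
Log2 fold change of the 53 members tested in both lines, A549 on the x axis and PC9 on the y axis, with standard errors and a dashed line of equal response. Most points lie below the dashed line, and the 6 members of the interaction (orange) are among those farther from it.

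The summed level of the members was lower in PC9-HOXC6 (3444 to 3461 CPM) than in PC9-NEO (4232 to 4354 CPM) and higher in A549-HOXC6 (4759 to 4917 CPM) than in A549-NEO (4192 to 4242 CPM). Without CDC25B and NCAPD2, the most abundant members in A549, the A549 sums were 2640 to 2683 CPM with HOXC6 and 2441 to 2489 CPM with NEO, and the PC9 sums 2775 to 2835 CPM and 3680 to 3752 CPM. Members under 40% GC summed to 741.4 to 773.7 CPM in PC9-NEO and 291.8 to 320.2 CPM in PC9-HOXC6, and to 488.9 to 525.1 CPM in A549-NEO and 249.9 to 344.1 CPM in A549-HOXC6. This sum was lower with HOXC6 in every library of both lines. Members at 50% GC or more summed to 1587 to 1656 CPM in PC9-NEO and 1611 to 1680 CPM in PC9-HOXC6, which overlapped. In A549 they summed to 2380 to 2434 CPM with NEO and 2958 to 3285 CPM with HOXC6. Most of these A549 sums was CDC25B and NCAPD2, with means of 1349 and 413 CPM in A549-NEO and 1627 and 527 CPM in A549-HOXC6. Their corrected A549 changes were 0.01 and 0.19 (adjusted p = 0.917 and 0.0135 by edgeR). The sum of this range was not taken without them.

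The empty-vector cells of the lines were compared as well. In PC9-NEO 12 members were called higher than in A549-NEO, against 16.4% of all 9076 genes tested, and 2 lower, against 19.6%. Calls over both directions were thus not more frequent among the members than among all genes. Without the criterion of size, 34 of the 54 members were higher and 4 lower, against 3243 and 3353 of all 9076 genes tested. The median of the members was 0.56, and that of all genes was -0.02. This comparison shares its libraries with those above and was not related to them. The 12 called higher were ZWINT (2.54), NDC80 (2.13), SPC24 (1.45) and SPC25 (1.02) of the kinetochore, with CENPF (1.16), the cytokinesis scaffold ANLN (1.60), the spindle protein DLGAP5 (1.58), CDC20 (1.27), the kinesin KIF20A (1.23), CDC25C (1.11), CCNB1 (1.07) and NCAPH (1.01). The 2 called lower were CDC25B (-3.23) and CCNB2 (-1.15). CDC25B had 1359, 1337 and 1352 CPM in A549-NEO and 139, 141 and 160 CPM in PC9-NEO, and it was the most abundant member in A549. On a scale per kilobase of transcript, A549-NEO levels ran from 0.644 CPM per kb for CENPE to 433 for CDC25B, and PC9-NEO levels from 0.932 for CENPE to 128 for CDC20.

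Another 77 genes of mitosis, from a list that excludes the members, were counted in the same way. In PC9, 11 of 74 tested were called lower, against 3.56% of all genes, and none higher, against 0.962%. Those lower at any size numbered 20, against 14.2% of all genes, and none was higher, against 13.3%. Their median was -0.26. At an unadjusted p under 0.05 by edgeR, 0 of these genes were higher in PC9. In A549, 7 of 75 were called lower, against 5.51%, and 2 higher, against 1.70%. Those lower at any size numbered 15, against 20.7% of all genes, and 19 were higher, against 18.9%. The median was 0.01. The largest falls in PC9 were in NIPBL, the loader of cohesin (-2.25, and -1.63 in A549), KNL1, the scaffold of the kinetochore (-2.18, and -0.84 in A549 with adjusted p = 0.0629 by edgeR), and SMC3, a cohesin ATPase (-1.81, and -1.58 in A549). The transcripts of these genes have 39.4%, 37.6% and 37.3% GC. After the correction 4 were called lower in PC9, against 1.43% of all genes, and 2 in A549, against 1.94%, and none was called higher.

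Promoters were read for motifs known from mitotic genes, since G2 and M transcription acts through the cell cycle genes homology region (CHR) and CCAAT boxes. RefSeq windows of 300 bases around the start (GRCh38.p14) were matched for 49 of the 54 members, and AURKA, BIRC5, RACGAP1, TPX2 and TTK were not matched. The CHR was searched as TTTGAA and the CCAAT box as CCAAT, each on both strands, and the motifs can share at most their end base. The CHR was found in 35 members (71.4%), against 15.2% of 35116 promoters, and the CCAAT box in 32 (65.3%), against 34.6%. Both were found in 26 (53.1%), against 5.9%. For each member 1 window was kept, while the 35116 promoters were all windows, without that limit and without a filter on expression. The shares are therefore over unlike sets. Windows of 3 members are shown with matches in capitals (ATTGG and TTCAAA are matches on the other strand), 2 of members called lower in PC9 and 1 of a member called in neither line, picked after their values were seen.
CENPF (plus strand, chr1:214602945-214603244): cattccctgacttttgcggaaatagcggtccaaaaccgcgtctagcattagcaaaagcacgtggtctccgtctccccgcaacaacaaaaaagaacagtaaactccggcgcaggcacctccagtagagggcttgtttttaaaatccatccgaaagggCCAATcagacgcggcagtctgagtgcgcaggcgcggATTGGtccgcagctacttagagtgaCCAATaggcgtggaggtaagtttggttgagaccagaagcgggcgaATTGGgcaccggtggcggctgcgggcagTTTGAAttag
KIF20B (plus strand, chr10:89701340-89701639): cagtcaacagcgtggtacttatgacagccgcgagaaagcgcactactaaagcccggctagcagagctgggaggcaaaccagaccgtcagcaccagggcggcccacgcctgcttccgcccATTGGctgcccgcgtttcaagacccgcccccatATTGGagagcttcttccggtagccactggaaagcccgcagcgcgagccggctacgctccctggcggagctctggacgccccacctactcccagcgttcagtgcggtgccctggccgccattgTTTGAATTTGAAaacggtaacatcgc
CDC20 (plus strand, chr1:43358731-43359030): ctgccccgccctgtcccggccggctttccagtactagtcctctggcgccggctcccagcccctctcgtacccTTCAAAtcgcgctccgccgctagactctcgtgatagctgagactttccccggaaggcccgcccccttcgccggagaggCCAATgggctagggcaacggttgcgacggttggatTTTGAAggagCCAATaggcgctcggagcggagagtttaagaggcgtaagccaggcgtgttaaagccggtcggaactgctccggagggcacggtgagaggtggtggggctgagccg
All 3 hold both motifs, with 1 CHR and 4 CCAAT boxes in CENPF and 2 of each in KIF20B and CDC20.

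Members with a CHR and members without one were also compared by their values. In PC9, 14 of 35 with it were called lower (median -0.91) and 2 of 14 without it (median -0.08). In A549 the counts were 5 of 34 (median -0.38) and 1 of 14 (median 0.22). The members with a CHR also had transcripts of lower GC content, with a median of 40.9% against 46.2% in PC9, so the motif and the transcript's composition moved together and their parts were not tested. For the CCAAT box the medians in PC9 were -0.28 for 32 members with it and -0.91 for 17 without it, of which 10 and 6 were called lower. The A549 medians were 0.02 and -0.48. Here too transcript GC content differed, with a median of 42.8% with the box and 40.1% without it in PC9, and its part was not tested. A match is a description of letters in a window and not of a site in use.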

How the data were processed

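The authors deposited raw read counts per gene, 1 column per library. Per the labels and the paper's methods, NEBNext Ultra Directional libraries of poly(A) RNA were sequenced as paired reads of 150 bp, aligned with HISAT2 (2.1.0) to GRCh37.p13 and counted with HTSeq (0.9.1, from the submitters' processing notes). The strand setting and annotation release are not given in the sources used here. The table holds 12584 complete genes, and 1 incomplete last entry was left out, so totals (1212053 to 3286577 counts) and adjustment cover these genes only. Later Ensembl identifiers, HOXC6 included, were not analysed here. Names, positions, lengths and GC content of canonical transcripts came from GENCODE v44 lifted to GRCh37, which holds 12463 of them.

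Groups and replicate numbers were taken from the labels. Within each line, and for all other comparisons, the whole table was fitted with edgeR (4.0.16, R 4.3.3), using filterByExpr, TMM scaling and the quasi-likelihood test without a replicate block, and member rows were read out. Each standard error is the log2 fold change divided by the square root of its F statistic. The correction subtracts, per library, smooth trends on GC content and log2 length (mgcv 1.9.3) and leaves 121 genes without annotation uncorrected. Alternatives were DESeq2 (1.42.0), other scalings, filters and thresholds, the block, thinning and leaving out each library. The fits were tested on simulated data.

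The members and lists were chosen with earlier results of these data known. Members with values in every library were, in each role group of 3 or more, those with the largest and the smallest absolute mean change over both lines, together with AURKA, PLK1, CCNB1, CDC20, MKI67, BIRC5 and the members called in the interaction. NDC80 was added because it was not tested in A549. Other members are named where a count is spelled out. Within groups the libraries differed beyond sampling noise, and none was counted as a duplicate.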

Additional observations from a re-analysis of the deposited data

Results flagged for a closer look

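These 6 members are listed because the response to HOXC6 differed between the lines in the interaction test over 12 libraries (edgeR, adjusted p under 0.05 and a difference over 1). The A549 response minus the PC9 response was 1.84 for SPC25, 1.76 for ZWINT, 1.46 for SMC4, 1.22 for CENPF, 1.19 for ASPM and 1.10 for ESPL1, on the log2 scale. With GC content and length corrected for, the differences were 1.82, 1.67, 1.54, 1.31, 1.29 and 1.07. In SPC25, ZWINT and ESPL1 every HOXC6 library lay above the NEO libraries in A549 and below them in PC9. In SMC4, CENPF and ASPM every HOXC6 library lay below the NEO libraries in both lines, by more in PC9. Groups of 3 libraries were not tested for outliers.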

How the results depend on the processing

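The count of 7 members lower in A549 was 2 with at least 10 counts in every library, 4 at an adjusted p under 0.01, 18 at any size, 0 when the fit tested for a log2 change beyond 1, 1 after the GC content and length correction, 2 after it with the replicate block, 1 in thinned libraries, and 3 to 8 with 1 library left out. In A549, 45 members entered the fit with at least 10 counts and 47 the thinned one. The 1 member higher in A549 became 12 at any size and 0 when testing for a change beyond 1. After the correction, with or without the block, 2 were higher. In PC9 the 17 members lower became 5 when testing for a change beyond 1, and the 0 higher became 1 at any size. The interaction gave 16 at any size, 0 when testing for a difference beyond 1 and 3 in thinned libraries, and the comparison of the NEO groups gave 38 and 8 in the first pair of these settings. The other settings kept these counts within a factor of 1.5, the replicate block among them (7 and 1 in A549, 17 and 0 in PC9, 6 in the interaction, 14 between the NEO groups). Libraries with the same number did not deviate together (correlations from -0.0263 to 0.0423), so no shift shared by number was seen. With 3 libraries per group this check cannot tell whether they were prepared together.

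Among the members given with values in every library, signs turned only in those without a call. After the correction these were CDCA5 (-0.02) in A549 and KIF2C (-0.09), INCENP (-0.15), RACGAP1 (0.04) and CCNB1 (0.08) in PC9, and with the block added CDCA5 was -0.02, KIF2C -0.07, INCENP -0.14, RACGAP1 0.04 and CCNB1 0.08. With scaling by library size only, KIF2C (-0.06), INCENP (-0.05) and CDC25C (-0.04) turned in PC9, and the median of all genes was -0.09 there. In thinned libraries KIF2C was -0.02 in A549 and RACGAP1 0 in PC9. With 1 library left out in PC9, RACGAP1 ran from -0.08 to 0.12, CDC25C from -0.10 to 0.18, CDCA5 from -0.05 to 0.03, INCENP from -0.02 to 0.11, KIF2C from -0.09 to 0.11 and BIRC5 from -0.15 to 0.01. The causes of these shifts were not tested. Depth limits the members under about 10 CPM most, since the shallowest library held 1212053 counts.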
